A study of Rattus norvegicus with 12 samples.

Results

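The transcriptomes of 2 rat kidney cell lines were compared in the libraries that had received no cisplatin. NRK-52E cells are epithelial and stand in for the tubule in many kidney studies, and NRK-49F cells are fibroblasts from the same organ. The members were chosen by their labels alone: the 3 NRK-52E libraries given vehicle and the 3 NRK-49F libraries grown in medium conditioned by untreated NRK-52E, 6 of the 12 libraries in the series. The other 6 were NRK-52E given 40 µM cisplatin, a DNA-crosslinking platinum drug, and NRK-49F grown in medium conditioned by such cells, called treated libraries here. The labels name no genetic change in either line, and both were kept in DMEM with 5% FBS. NRK-49F spent 24 h in its conditioned medium, and NRK-52E was given vehicle at 50% confluence, so line and culture history cannot be told apart in any difference given here. Nothing in the labels states that replicate libraries came from separate cultures, so each p-value speaks of the spread between these libraries alone, and that spread may be technical.

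Tubule epithelial cells sit in sheets, joined by cadherin and tight junctions over a keratin network, and move solutes between lumen and blood. Fibroblasts lie between the tubules, lack such junctions, and secrete and remodel the collagen-rich matrix. After tubule injury, signals pass from the epithelium to the fibroblasts, which is the setting that the series was designed to model with conditioned medium. A comparison of the unexposed lines describes the state from which each of them responded.

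The gene table gave Ensembl rat identifiers without names, and 0 of the 21698 identifiers matched the RefSeq tables used here. The labelled cell types were therefore not checked against epithelial, tubular, fibroblast or other marker genes, no gene family is described, and single genes are given by identifier. No promoter sequence is shown for the same reason. Total counts of the 6 libraries ranged from 10411214 to 12468005, so that 3 counts, the floor used for a count of 0, equalled 0.241 to 0.288 CPM (counts scaled to a common library total) in a single library. That floor covers counting error only. No pair of libraries within a group agreed within sampling noise (chi-square statistic per degree of freedom 1.67 to 2.84), and each was counted as 1 sample.

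Most of the measured transcriptome differed between the lines, in nearly equal numbers on both sides. Of 12147 genes tested, 5126 were higher in NRK-49F and 5240 were higher in NRK-52E, and 1781 did not pass. By edgeR's quasi-likelihood test, with Benjamini-Hochberg adjustment and a threshold of 0.05, 85.3% of genes were called, 42.2% on the fibroblast side and 43.1% on the epithelial side. The median difference was 0.94 on the log2 scale among genes called higher in NRK-49F and -0.97 among those called higher in NRK-52E. The groups did not overlap for 85.8% of tested genes, and 209 genes were called although the libraries of the lines overlapped.

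Large differences were frequent. A difference of at least 2-fold was found for 2434 genes on the fibroblast side and 2554 on the epithelial side. At 4-fold or more the numbers were 1246 and 1112, and at 16-fold or more 608 and 461. Among the latter, 143 genes on the fibroblast side and 221 on the epithelial side had 0 counts in all 3 libraries of the other line, and their fitted folds depend on the small count that edgeR adds. The remaining 705 genes past 16-fold had counts in both lines.

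The even split of directions rested on the scaling of the libraries. The TMM factors, which scale each library so that the bulk of genes is level, ranged from 1.169 to 1.18 for NRK-52E and from 0.8513 to 0.8523 for NRK-49F. With library size as the only scaling the median of all genes moved from -0.03 to -0.49 on the log2 scale, and 3385 genes were then higher in NRK-49F and 7364 in NRK-52E. The share of calls on the fibroblast side thus went from 49.5% to 31.5%, and it was 40.4% with upper-quartile scaling. At 4-fold or more the order of the sides turned, with 1014 genes on the fibroblast side and 1612 on the epithelial side with library size only. At 16-fold or more it did not, with 546 and 533, but at 256-fold or more it did, with 188 and 194 in place of 209 and 167. Directions, and the balance of the sides at most sizes of difference, are therefore relative to the bulk of genes as set by TMM.

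**Figure D1:**
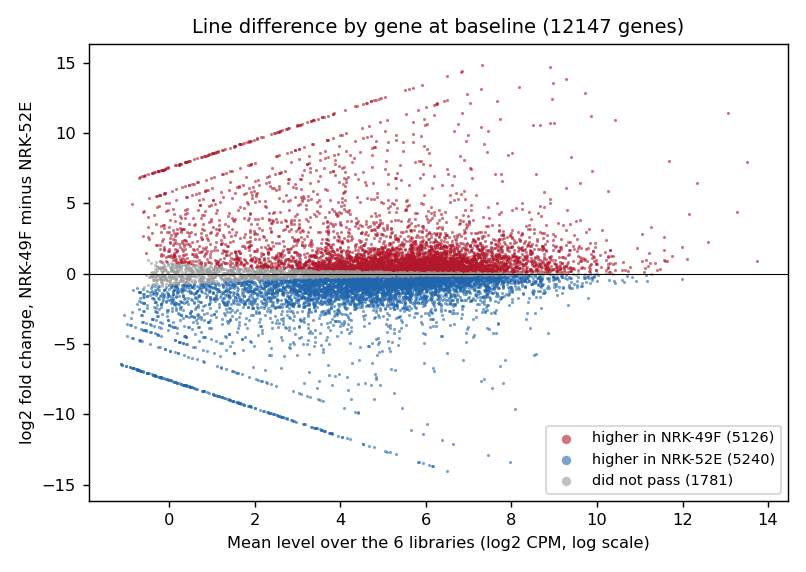
Each point is 1 of 12147 genes, with its mean level over the 6 libraries (log2 CPM) on the horizontal axis and its log2 fold change, NRK-49F minus NRK-52E, on the vertical axis. The 5126 genes called higher in NRK-49F (red) and the 5240 called higher in NRK-52E (blue) lie on both sides of 0 at every level, and the straight rows of points at the edges are genes with 0 or a few counts in 1 line.

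A few very abundant transcripts held far more of the reads in the fibroblast line. The 10 genes with the most reads held 10.7%, 10.6% and 10.7% of counts in the NRK-49F libraries and 4.08%, 4.02% and 4.1% in the NRK-52E libraries. The means were 10.7% ± 0.0953 and 4.07% ± 0.0402 (SD, n = 3 each), and the exact permutation test, two-sided here as elsewhere, gave p = 0.1, the lowest value open to 3 libraries against 3. Every fibroblast library lay above every epithelial one. The gap was already present for the gene with the most reads, at 1.87% to 2.1% against 1.08% to 1.13%. It widened to 26.1% against 16.8% for the first 100 genes and was 60% against 50.9% for the first 1000. The number of genes that together held 50% of the counts gave the same order, with 573 ± 2.65 genes in NRK-49F and 956 ± 4.93 genes in NRK-52E (SD, n = 3 each).

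Most of the genes that led in NRK-49F were far higher there than in NRK-52E, whereas most of those that led in NRK-52E were not far apart between the lines. All 10 genes with the most reads in NRK-49F passed the test as higher there, 7 of them by at least 4-fold, with a median difference of 4.31 on the log2 scale and a range of 0.91 to 11.41. Choosing genes by their reads in 1 line favours that direction. The same choice made in NRK-52E gave 5 of 10 called higher in NRK-52E, 1 of them by at least 4-fold (ENSRNOG00000001469, nearly without reads in NRK-49F), with a median difference of 0.06 in favour of NRK-52E and a range of -1.01 to 14.68. These NRK-52E leaders held 4.06% ± 0.035 of counts in their own line, against 3.53% ± 0.049 in NRK-49F. The NRK-49F leaders held 10.7% ± 0.095 of counts in NRK-49F and 2.09% ± 0.035 in NRK-52E (SD, n = 3 each). The lists of 10 shared 2 genes, 20% of each. The lists of 100 shared 51 genes, and the lists of 1000 shared 618.

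**Figure D2:**
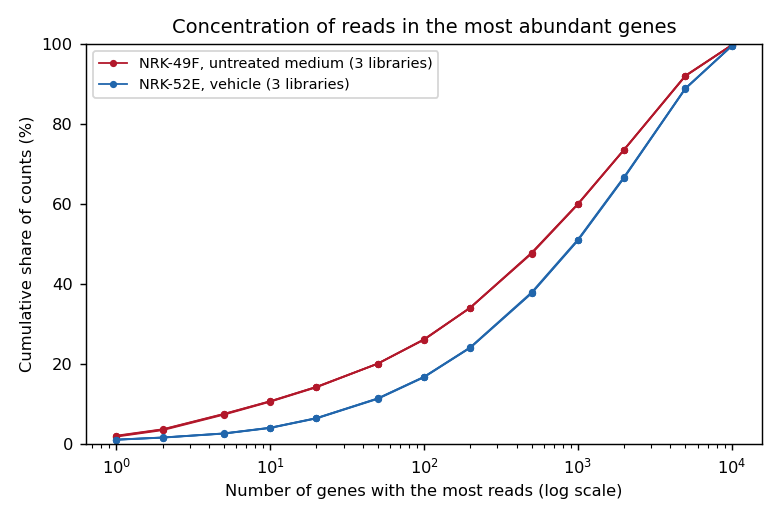
The vertical axis is the share of a library's counts (%) held by the genes with the most reads, whose number is on the horizontal axis (log scale), with 1 line per library. The 3 NRK-49F libraries lie together above the 3 NRK-52E libraries, at 10.6% to 10.7% against 4.02% to 4.1% for 10 genes.

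The epithelial line showed reads from more genes. Genes with at least 1 count numbered 15775, 15754 and 15908 in the NRK-52E libraries and 14669, 14517 and 14635 in the NRK-49F libraries. The means were 15812 ± 83.5 and 14607 ± 79.8 (SD, n = 3 each, p = 0.1 by the exact permutation test), a difference of -1205 for NRK-49F minus NRK-52E, and the groups did not overlap. With every library thinned at random to 10411214 counts, the difference was -1111. At 5 counts or more it was -605. A larger share of reads in a few genes leaves fewer reads for the rest, and its part in the number of detected genes was not tested.

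Genes often fell in the same wide class of CPM in both lines. Genes that share a class can still differ several-fold, and the median absolute difference over all tested genes was 0.79 on the log2 scale. Of 2049 genes at a mean of 100 CPM or more in NRK-52E, 1544 (75.4%) were also at 100 CPM or more in NRK-49F, 470 were at 10 to 100 CPM, and 16 were at 0 counts or under 1 CPM. Of 2450 genes at 100 CPM or more in NRK-49F, 1544 (63%) were so in NRK-52E, and 58 were at 0 counts or under 1 CPM. In the class of 10 to 100 CPM, 4896 genes were shared by both lines, 73.5% of the NRK-52E class and 80.6% of the NRK-49F class. Silence was shared as well: 3001 genes had 0 counts in all 6 libraries. These levels are on the TMM scale and not divided by transcript length, so they compare a gene with itself and not with other genes.

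**Figure D3:**
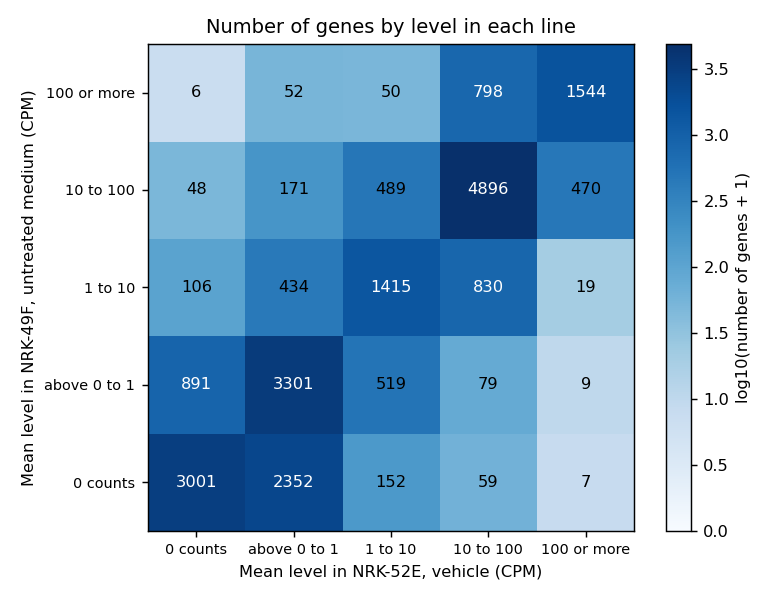
Each cell gives the number of genes with the mean level on the horizontal axis in NRK-52E and on the vertical axis in NRK-49F (CPM classes), and the colour is log10 of that number plus 1. Most genes lie on or beside the diagonal, with 4896 at 10 to 100 CPM and 1544 at 100 CPM or more in both lines, and the corners hold 6 and 7 genes.

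The balance of directions shifted with abundance. Among 2301 genes with a mean of 100 CPM or more over both lines, 1315 were higher in NRK-49F and 817 in NRK-52E, and at least 2-fold differences numbered 586 and 216. Among 2805 genes of 1 to 10 CPM the order was the reverse, with 849 higher in NRK-49F and 1298 in NRK-52E. The 6653 genes between 10 and 100 CPM comprised 2876 and 2918, and the 388 genes under 1 CPM comprised 86 and 207. With library size only, NRK-52E was the more frequent side in the highest class as well (892 and 1255), whereas the order at 1 to 10 CPM was unchanged (645 and 1673). The filter on low counts admits a gene under 1 CPM more easily when it is clearly higher in 1 line, and so partly sets the share of calls in that class.

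A smaller set of genes was bounded to lie close between the lines on the TMM scale. For 938 genes (7.72% of those tested) the 95% interval of the fold lay within 1.2-fold in either direction, and 936 of these had a mean of 10 CPM or more. Of the 938 genes, 224 nevertheless passed the test as different. With library size only, the median of all genes lay at -0.49 in place of -0.03 on the log2 scale, a shift larger than 1.2-fold. Which genes lie within 1.2-fold thus depends on the scaling, and the intervals were not repeated with other scalings. The median standard error was 0.044 on the log2 scale at 100 CPM or more and 0.495 under 1 CPM. Another 1067 genes (8.78%) neither passed the test nor had an interval that stayed within 1.2-fold, and for them a difference was not detectable at this depth.

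Some genes were on in 1 line and nearly without reads in the other. A gene was counted as on in a line if each of its 3 libraries had at least 2 CPM, and as off in the other line if the 3 libraries there held at most 3 counts together. By this rule 227 genes were on in NRK-52E and off in NRK-49F, and 228 were on in NRK-49F and off in NRK-52E. The choice of genes ensures that they differ, and all 455 passed the edgeR test, so the pass is no separate support. The genes on in NRK-49F were expressed at a median of 12.6 CPM, up to 1299 CPM, and 29 were at 100 CPM or more. The genes on in NRK-52E were at a median of 7.7 CPM, up to 3094 CPM, with 15 at 100 CPM or more.

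These exclusive genes held about 1 in 100 reads of their own line. The 227 genes on in NRK-52E held 0.928%, 0.972% and 1.02% of counts in the NRK-52E libraries and 36 to 47 counts in each NRK-49F library. The 228 genes on in NRK-49F held 0.965%, 1.03% and 0.995% of counts in the NRK-49F libraries and 60 to 80 counts in each NRK-52E library. A single gene, ENSRNOG00000001469, held 36.3% of the reads of the NRK-52E set, and without it the share was 0.606%, 0.62% and 0.631%. Without the gene with the most reads in the NRK-49F set, 10.6% of that set's reads, the share was 0.86%, 0.923% and 0.887%. Of the first set 150 had 0 counts in all NRK-49F libraries, and of the second set 110 had 0 counts in all NRK-52E libraries.

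On each side the genes with the widest separation were followed through all libraries. They were chosen by call and fold in these same baseline libraries, so the baseline p-values given for them are no separate support. ENSRNOG00000010797 had 3115, 2889 and 3177 counts in the NRK-49F libraries and 0 counts in each NRK-52E vehicle library. Its mean was 334 ± 15.2 CPM in NRK-49F (SD, n = 3). Set against 3 counts summed over the NRK-52E vehicle group (0.0741 CPM), it was at least 4505-fold higher in NRK-49F (edgeR adjusted p = 9.03e-54). The gene was not silent in treated NRK-52E, where it had 73, 81 and 68 counts, or 5.86 ± 0.358 CPM (SD, n = 3). In NRK-49F with cisplatin medium it was at 135 ± 6.97 CPM (SD, n = 3), so the lines lay closer together there but did not overlap.

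ENSRNOG00000026053 had 8894, 8942 and 9495 counts in the NRK-49F libraries and 0, 1 and 0 in NRK-52E with vehicle. Its level in NRK-49F was 998 ± 82.6 CPM (SD, n = 3). With 1 count in NRK-52E, the ratio was 40238, with a 95% Poisson interval of 7222 to 1589313 that covers counting error only (edgeR adjusted p = 9.83e-59). In the treated libraries it was at 324 ± 35.7 CPM in NRK-49F and 0.99 ± 0.226 CPM in NRK-52E (SD, n = 3 each). As for the first gene, the levels of both lines were closer to each other in the treated libraries and did not overlap.

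On the epithelial side, ENSRNOG00000001469 was the gene with the third most reads in the vehicle libraries. It had 37815, 39835 and 47893 counts there, 0.353% of all counts of the group, and 1, 0 and 2 counts in the NRK-49F libraries. Its level was 3094 ± 269 CPM in NRK-52E and 0.106 ± 0.108 CPM in NRK-49F (SD, n = 3 each), a ratio of 28424 with a 95% Poisson interval of 9726 to 137833 (edgeR adjusted p = 1.43e-60). In the treated libraries it was at 1169 ± 153 CPM in NRK-52E and 0.153 ± 0.0571 CPM in NRK-49F (SD, n = 3 each). It thus remained far apart between the lines in every library.

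ENSRNOG00000062959 had 2508, 2422 and 2626 counts in NRK-52E with vehicle and 0 counts in each of the 6 NRK-49F libraries of either medium. Its level was 187 ± 1.63 CPM with vehicle and 197 ± 12.2 CPM with cisplatin (SD, n = 3 each). Against 3 counts summed over NRK-49F in untreated medium (0.109 CPM), the vehicle level was at least 1710.0-fold higher (edgeR adjusted p = 3.3e-49). Of the 4 genes it is the one whose level in its own line was nearly the same with and without cisplatin.

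**Figure D4:**
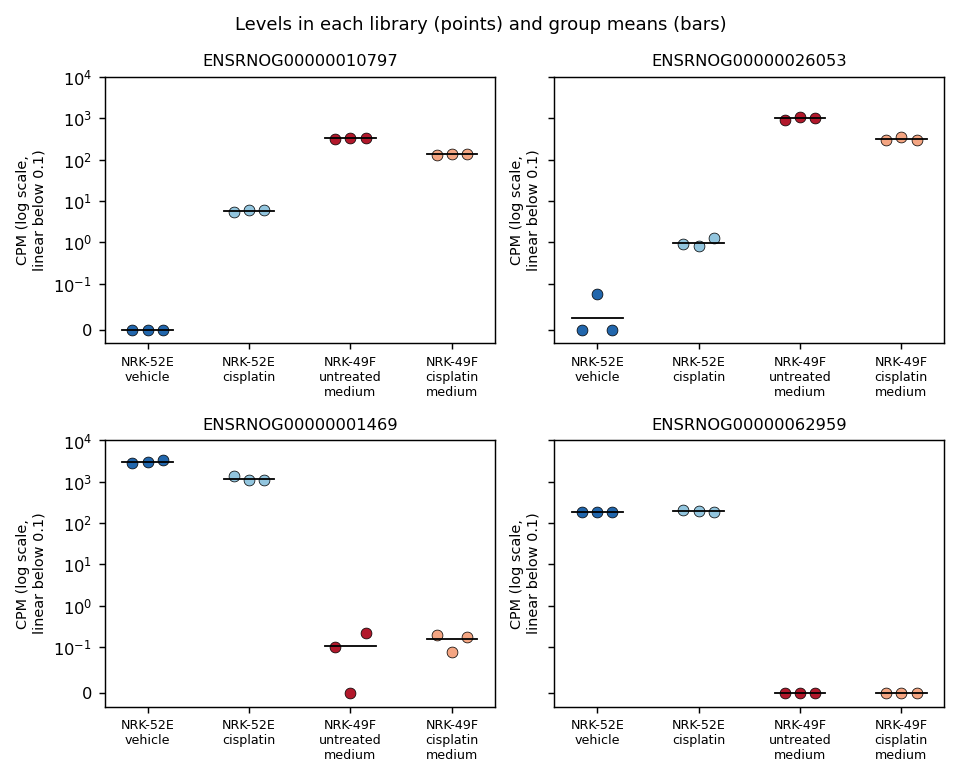
Points are the levels of 4 genes in each of the 12 libraries (CPM on the TMM scale, log axis that is linear below 0.1), with a bar at the mean of each group of 3. ENSRNOG00000010797 goes from 0 counts in NRK-52E with vehicle to 5.86 CPM with cisplatin, whereas ENSRNOG00000062959 is at 0 counts in all 6 NRK-49F libraries.

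The treated libraries, which share no library with the baseline comparison, offered a second comparison of the lines. The lines were exposed to different agents there, so it is no repeat of the baseline comparison, and line and agent cannot be told apart. In a separate test of NRK-49F in cisplatin medium against NRK-52E given cisplatin, 5173 of 12795 genes were higher in NRK-49F and 5452 in NRK-52E (edgeR, 40.4% and 42.6%, or 83% called in all). Gene sets chosen in the treated libraries were then read in the baseline libraries. The 480 genes at least 16-fold higher in NRK-49F there held 8.11%, 7.82% and 8.02% of counts in the baseline NRK-49F libraries and 0.114%, 0.117% and 0.129% in NRK-52E. These shares count every gene of the set, whether or not it passed the filter at baseline.

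The set on the epithelial side was larger in number and smaller in reads. The 773 genes at least 16-fold higher in NRK-52E in the treated libraries held 1.77%, 1.84% and 1.89% of counts in NRK-52E with vehicle, against 0.042%, 0.0411% and 0.0411% in NRK-49F with untreated medium. For both sets the lines did not overlap (exact permutation p = 0.1 each). At baseline 366 of the 773 genes had too few reads to pass the filter, against 20 of the 480 on the fibroblast side, and no count of calls is given for the members that passed, since they did so through the line in which they are high.

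Most differences that were called in both conditions kept their direction. In a fit of all 12 libraries of 13127 genes, 10729 were called at baseline and 10862 in the treated libraries. Both calls were made for 9152 genes, of which 7344 (80.2%) had the same direction and 1808 (19.8%) the opposite one. Of genes at least 2-fold apart in both, 3148 had the same direction and 180 the opposite. Among these 180, 131 were higher in NRK-49F at baseline and higher in NRK-52E in the treated libraries, and 49 went the other way. With library size only, the numbers were 109 and 58. At 4-fold or more in both, 1657 genes had the same direction and 38 the opposite. The correlation of the log2 differences across the 13127 genes, which are not independent replicates, was 0.807 (Pearson) and 0.667 (Spearman).

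**Figure D5:**
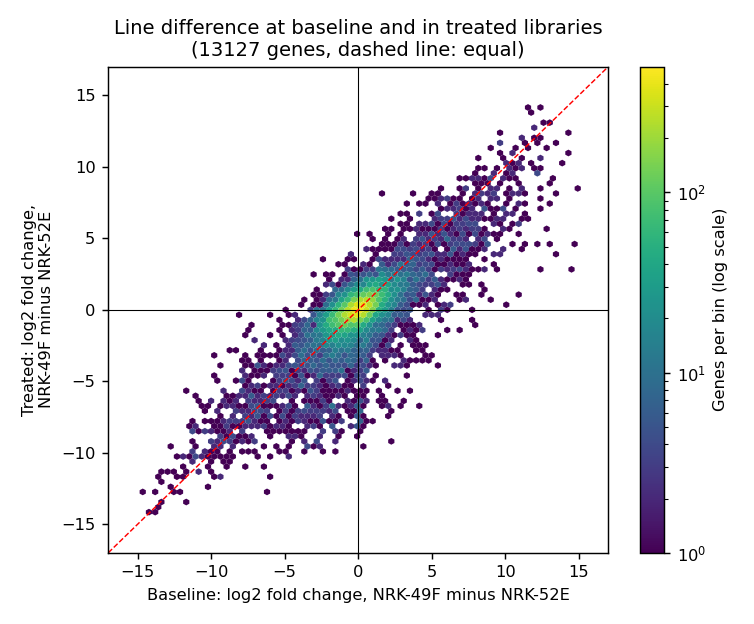
Bins hold 13127 genes by their log2 fold change, NRK-49F minus NRK-52E, at baseline (horizontal) and in the treated libraries (vertical), coloured by genes per bin on a log scale, with a dashed line where both are equal. Of the 9152 genes called in both conditions 80.2% lie in the quadrants of shared direction, and 180 genes at least 2-fold apart in both conditions lie in the other quadrants.

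The typical difference between the lines was smaller in the treated libraries, but differences of 8-fold or more were more numerous with TMM scaling. The median absolute difference over the same 13127 genes was 0.81 on the log2 scale at baseline and 0.69 in the treated libraries, and the interquartile range was 1.62 and 1.39. The contrast of both differences was called for 8724 genes (66.5%, edgeR), of which 5155 (59.1%) were smaller and 3569 larger in the treated libraries. Genes were classed here by mean CPM over all 12 libraries, so these classes are not the baseline ones above. The medians went from 1.24 to 1.16 for genes of 1 to 10 CPM, from 0.70 to 0.56 between 10 and 100 CPM, and from 0.65 to 0.50 for the most abundant class of 100 CPM or more. Under 1 CPM the order was the reverse, at 1.71 and 2.74 for 1079 genes. Genes at least 2-fold apart numbered 5393 at baseline and 4967 in the treated libraries, at 4-fold 2659 and 2597, at 8-fold 1672 and 1733, and at 16-fold 1214 and 1312. These counts were not tested against each other, and those at 8-fold and 16-fold were not repeated with library size only. The filter over all 12 libraries admits genes that pass in 1 condition only, which favours a large difference in that condition. By the separate filters 12147 genes passed at baseline and 12795 in the treated libraries. The part of this in these counts and in the class under 1 CPM was not tested. At 4-fold, the counts of both sides fell with library size only, as given below. With library size only, 61.9% of the called genes had the smaller difference in the treated libraries.

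The sides did not change alike. Genes at least 4-fold higher in NRK-49F numbered 1368 at baseline and 1038 in the treated libraries, whereas genes at least 4-fold higher in NRK-52E numbered 1291 and 1559. With library size only, the first number fell likewise, from 1095 to 855, but the second went from 1878 to 1796. The rise of the count on the epithelial side thus rests on the scaling. That side had the larger count in both conditions with library size only. More genes were detected in treated NRK-52E, with 17980 ± 197 genes of at least 1 count against 15812 ± 83.5 with vehicle. In NRK-49F the numbers were 14873 ± 111 and 14607 ± 79.8 (SD, n = 3 each). The part of this in the counts above was not tested.

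Reads of many genes exclusive to the fibroblast line at baseline were found in NRK-52E after cisplatin, mostly at low levels. Of the 228 genes on in NRK-49F, 200 (87.7%) were still on there in cisplatin medium, but 113 (49.6%) were still off in NRK-52E with cisplatin. Their counts in NRK-52E went from 60 to 80 per vehicle library to 1111 to 1342 per cisplatin library. The median gene of the set was then at 0.0997 CPM, 5 genes reached 2 CPM in every cisplatin library, and the highest mean was 24.3 CPM. Over the whole table, genes detected in NRK-52E went from a mean of 15812 with vehicle to 17980 with cisplatin. Gains from few or no reads were thus not confined to this set. Of the 227 genes on in NRK-52E, 192 (84.6%) were still on with cisplatin and 191 (84.1%) were still off in NRK-49F, where 0 reached 2 CPM and the highest mean was 0.862 CPM. Their counts per NRK-49F library went from 36 to 47 up to 103 to 160. Genes chosen for low counts at baseline can gain some when measured again through that choice alone. Its part in these gains was not tested, and neither was the difference between the 2 sets.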

How the data were processed

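Per the labels' protocols, TRIzol and Direct-zol kits gave the RNA, and a stranded TruSeq mRNA kit the libraries. The authors deposited 1 table of raw read counts per Ensembl gene, and the submitters' processing notes list STAR 2.7.10a, Subread and featureCounts with no settings. For genome build, annotation and strand the answer is not given in the sources used here, so counts of overlapping, antisense or near-identical genes are uncertain. The protocol gives NRK-52E 6 h of exposure followed by 24 h in fresh medium, and the design text 24 h of treatment, and the labels do not settle which applies.

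Counts were tested with edgeR 4.0.16 (R 4.3.3): TMM scaling, filterByExpr with a minimum count of 10 and total of 15, glmQLFit and glmQLFTest on the group, Benjamini-Hochberg adjustment over all genes tested, threshold 0.05. Standard errors were taken as the size of the log2 fold change over the root of the F statistic, and 95% intervals use its degrees of freedom. The common biological coefficient of variation was 3.38% at baseline. CPM of single genes and of exclusive genes use TMM-scaled sizes of all 12 libraries, and the CPM classes at baseline those of the 6 baseline libraries. The CPM classes of the comparison with the treated libraries use the mean over all 12 libraries. Thinned numbers are means of 20 draws. The steps were tested on simulated data. Alternatives were other scalings and filters, DESeq2 1.42.0, the replicate number as a block, a fit of all libraries and leaving out each library.

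The comparison and the gene lists were chosen with earlier results of these data known. Single genes were to be named from marker lists and by the largest fold among called genes without overlap between the groups, with a mean of at least 20 CPM in the higher line and a symbol. With 0 identifiers matched to names, the lists, the cell type markers and the mitochondrial share were not run, and the 2 genes with the largest fold on each side are given without the symbol condition, which 3873 and 3278 genes passed. Figures were drawn with matplotlib 3.10.9.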

Additional observations from a re-analysis of the deposited data

Results flagged for a closer look

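The line difference was of another size in the treated libraries than at baseline for 8724 genes, by the direct test of that contrast in a fit of all 12 libraries, which is why they are listed here. ENSRNOG00000010797 was among them, where the contrast was -10.39 in log2 units (edgeR adjusted p = 1.39e-24), as was ENSRNOG00000026053, with -6.42 (edgeR adjusted p = 5.91e-10). Both values depend on the small count that edgeR adds, since the NRK-52E vehicle libraries held 0 and 1 counts of these genes. Both genes were also chosen for their large baseline fold, which is part of the contrast. That choice favours a smaller difference in the treated libraries, so these p-values are no separate support. All 3 libraries of each treated group lay inside the span of the baseline groups for both genes. The contrast did not pass for ENSRNOG00000001469 (edgeR adjusted p = 0.21) or ENSRNOG00000062959 (edgeR adjusted p = 1), where the off line had 0 to 2 counts per library and a difference was not detectable at this depth. The lines received different agents, so line and agent cannot be told apart. No library was searched for as deviating from its group, since that needs more than 3 libraries.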

How the results depend on the processing

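The baseline count of 10366 genes, of 12147 tested, stayed within 1.5 times under every scaling, filter and tool run. It went from 9142 of 10364 tested (at least 5 CPM in 3 libraries) to 11241 of 18697 (no filter), with 10303 of 15821 by DESeq2. The share called was thus lower than the 85.3% above without the filter and by DESeq2. The directions of the 4 genes given by identifier did not turn in any of them. These genes were chosen for their very large folds, which such settings could hardly turn, so this is no separate support. Genes higher in NRK-49F fell to 3385 with library size only, as given above. Stricter calls gave fewer genes by construction: 4988 (2434 higher and 2554 lower in NRK-49F) at 2-fold or more, and 6413 (3174 and 3239) when tested against 1.5-fold. Without any 1 library it was 10254 to 10354. With the replicate number as a block it was 10323. Deviations of same-numbered libraries of the 2 lines correlated at -0.068, 0.022 and -0.058, and not every library correlated best with its own number. Same-numbered libraries thus showed no shared deviation, which cannot tell whether their cultures were handled together. The difference in detected genes was -605 at 5 counts or more and -1111 after thinning, and -1236 to -1158 without any 1 library. The share of the most abundant genes differed by 9.35 percentage points for 100 genes in place of 6.6 for 10. With at most 10 counts and at least 5 CPM, exclusive genes numbered 178 in NRK-52E and 246 in NRK-49F, less even than the 227 and 228 above. Without any 1 library they numbered 234 to 252 and 231 to 272. Leaving out a library relaxes the rule, which favours such larger numbers. All were within 1.5 times. The contrast with the treated libraries gave 8445 to 8684 genes without any 1 library. For detected genes, exclusive genes and shares of counts, leaving out libraries was chosen after seeing the data, as was library size only for the classes of the contrast. CPM classes were repeated with library size only, which turned the order of the sides at 100 CPM or more. Lists of the most abundant genes and the intervals within 1.2-fold were not repeated. Depth limits the genes under 1 CPM.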
